A study of Mus musculus with 6 samples.

Results

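The genes of the TGF-beta and BMP pathways were examined in mouse mammary carcinoma 4T1 cells, as 44 listed ligands, latent binding proteins, receptors, antagonists, SMADs and ID target genes out of the 53465 genes in the count table. The genes were matched by symbol, with no threshold on a measured value. RNA was sequenced from 3 libraries of parental (P) cells and 3 libraries of axitinib-resistant (AxR) cells. 4T1 is an established mammary tumor line of Balb/c origin that seeds metastases in the lung, and axitinib is a tyrosine kinase inhibitor directed mainly at VEGF receptors. AxR cells came from metastatic lesions that arose after removal of the primary tumor in mice given axitinib at 100 mg/kg/day, and were then cultured with 0.5 μM axitinib for over 2 months. P cells carried no treatment label, and the study describes its parental cells as vehicle-treated. The growth label, however, names 0.5 μM axitinib for all 6 samples. The sources used here do not say how many lesions or clones gave rise to the AxR line, or whether replicates were separate cultures, so p-values measure only the spread between these libraries. Drug exposure, passage through the animal and selection of a subpopulation all go with the AxR line and cannot be told apart.

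TGF-beta, activins and BMPs are dimeric ligands that bring together type I and type II serine/threonine kinase receptors. TGF-beta and activin receptors phosphorylate SMAD2 and SMAD3, BMP receptors phosphorylate SMAD1, SMAD5 and SMAD9, and both groups of SMADs enter the nucleus with SMAD4. In mammary epithelium TGF-beta restrains growth, and in carcinoma cells it is known for promoting epithelial-mesenchymal transition and invasion, while BMPs induce the ID genes. The members were divided into 17 of the TGF-beta and activin arm, 17 of the BMP arm and 10 used by both arms or not particular to one.

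Libraries held between 15495260 and 17294525 estimated counts. Levels are CPM, the counts of a gene scaled to a common normalized library size, and differences are log2 fold changes of AxR over P from edgeR's quasi-likelihood test with standard errors (SE) and with p-values adjusted by Benjamini-Hochberg over the 13550 genes with enough counts to be tested. AxR replicate 3 lay apart from the other AxR libraries on the second principal component, and the values without it are given where they change a call. The markers Epcam, Cdh1, Krt8 and Krt18 were present in both lines, and Krt5 had no count in any library. Of the 9 tested mammary epithelial markers 6 were higher and 3 lower in AxR cells, the latter being Cldn7 (8.22 ± 1.18 to 0.751 ± 0.108 CPM), Krt19 (8.88 ± 0.798 to 3.56 ± 0.170 CPM) and Cldn3 (61.2 ± 3.71 to 31.8 ± 3.40 CPM, SD, n = 3 per line). The summed level of 10 mammary epithelial markers was between 1951 and 2180 CPM in P libraries and between 3041 and 3214 CPM in AxR libraries. Of 10 fibroblast markers, Col3a1, Lum and Thy1 had no count, and the summed level was from 95.9 to 102 CPM in P libraries and from 358 to 424 CPM in AxR libraries, of which Postn had 269, 258 and 284 CPM in AxR replicates 2, 3 and 1. Of the 3 fibroblast markers tested Postn and S100a4 were higher, and Col5a1 was lower, at 42.0 ± 1.04 CPM in P and 25.4 ± 0.830 CPM in AxR cells (SD, n = 3 per line). Of 10 leukocyte markers 4 had no count, and their sum was from 6.14 to 8.08 CPM in P libraries and from 16.4 to 17.1 CPM in AxR libraries, nearly all from Cd68 and Cd14. The 9 endothelial markers summed to at most 0.808 CPM in any library. The 7 lung epithelial markers summed to 0.577 to 1.15 CPM in P and 4.15 to 4.21 CPM in AxR libraries. Only Foxj1 of these was tested, and it was higher in AxR cells (log2 fold change 2.72, adjusted p of 6.42e-07 by edgeR). Foxj1 had 12, 5 and 11 counts in P and 60, 60 and 66 counts in AxR replicates 1 to 3, or up to 3.83 CPM. The part of these marker levels in the results was not tested.

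Of the 44 members, 37 had enough counts to be tested. The other 7 were all of the BMP arm. In AxR cells 13 members were higher and 15 were lower at an adjusted p under 0.05, and 9 did not pass. Over all genes tested, 63.5% passed this threshold, 32.8% in the higher and 30.8% in the lower direction, so most genes of any kind differed between these lines. Only 4 of the 28 differences were of at least 1 on the log2 scale, a size reached by 12.7% of all genes tested. These were the falls of Fst and Bmp7 and the rises of Id2 and Id3. In 27 of the 37 tested members the ranges of the 2 lines did not overlap, against 68.3% of all genes tested. With 3 libraries against 3, an exact two-sided permutation test of a single member cannot give a p below 0.1.

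**Figure D1:**
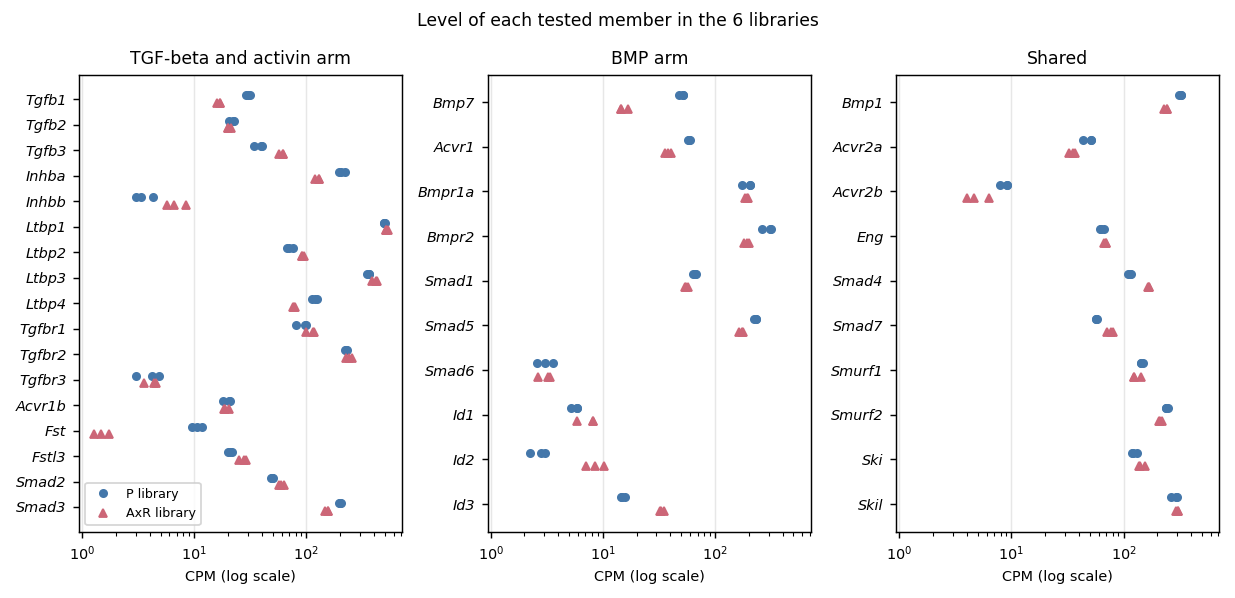
Level of the 37 tested members in each library, in CPM on a log scale, with circles for the 3 P libraries and triangles for the 3 AxR libraries. Fst, Bmp7, Id2 and Id3 show the widest gaps between the lines, whereas the symbols of Tgfb2, Bmpr1a and Smad6 overlap.

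In the TGF-beta and activin arm, all 17 members were tested, 7 were higher, 5 were lower and 5 did not pass. The median log2 fold change was 0.06, beside 0.01 over all genes tested. In the BMP arm 10 of 17 members were tested, of which 3 were higher, 5 were lower and 2 did not pass, with a median of -0.13. The 3 higher members of the BMP arm were its ID target genes, and the 5 lower ones were its ligand, 2 receptors and 2 SMADs. Of the 10 shared members 3 were higher and 5 were lower, with a median of -0.04. The difference between the arms was not tested.

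**Figure D2:**
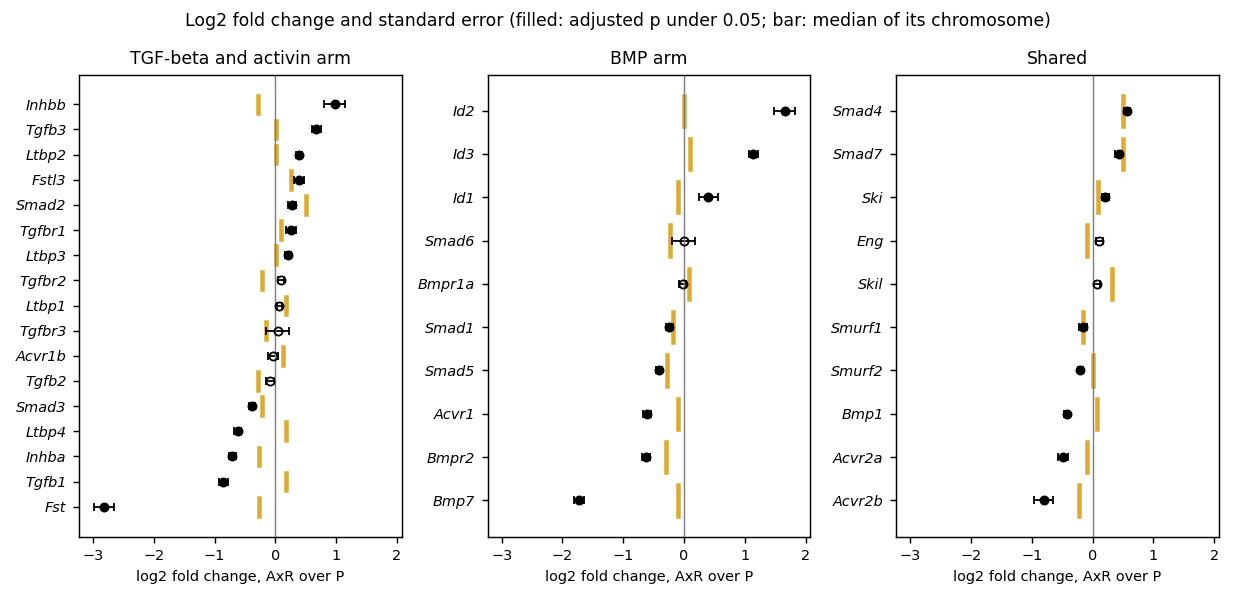
Log2 fold change of AxR over P for each tested member with its standard error, ordered by size within each arm. Filled circles passed an adjusted p under 0.05, open circles did not, and the vertical bars mark the median log2 fold change of all tested genes on the same chromosome, which is 0.50 for Smad2, Smad4 and Smad7.

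The ligands of the TGF-beta arm changed in opposite directions. Tgfb1, which encodes the most widely studied isoform (ENSMUSG00000002603.15, chromosome 7 of GRCm38 from 25687002 to 25705077), had 28.9, 31.2 and 30.1 CPM in P replicates 1 to 3 and 17.1, 15.9 and 16.8 CPM in AxR replicates 1 to 3. The AxR libraries were all below the P range, and the log2 fold change was -0.86 (SE 0.074, adjusted p of 1.02e-07 by edgeR). Tgfb3 (ENSMUSG00000021253.7, chromosome 12 from 86056745 to 86079041) had 39.0, 34.3 and 40.0 CPM in P and 61.3, 62.1 and 57.4 CPM in AxR replicates 1 to 3. All AxR libraries were above all P libraries, with a log2 fold change of 0.68 (SE 0.070, adjusted p of 6.93e-07 by edgeR). Tgfb2 had 21.7 ± 1.03 CPM in P and 20.5 ± 0.830 CPM in AxR cells (SD, n = 3 per line), the libraries overlapped, and it did not pass (log2 fold change -0.09, adjusted p of 0.341 by edgeR).

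To compare isoforms with each other, CPM was divided by the exon length of each gene in kb. This length joins all annotated exons of a gene, and was 5042 bases for Tgfb1, 5791 for Tgfb2 and 3383 for Tgfb3. Transcripts in these cells need not hold all of these exons, so orders and shares between genes depend on this choice of length. On this per-length scale Tgfb3 was already the most abundant of the 3 TGF-beta transcripts in P cells, with 11.2 ± 0.902 CPM per kb, where Tgfb1 had 5.96 ± 0.235 and Tgfb2 had 3.75 ± 0.178 CPM per kb (SD, n = 3 per line). In AxR cells the levels were 17.8 ± 0.743 for Tgfb3, 3.29 ± 0.126 for Tgfb1 and 3.53 ± 0.143 for Tgfb2 (CPM per kb, SD, n = 3 per line). In AxR cells Tgfb2 was above Tgfb1 in each library, at 3.42, 3.48 and 3.69 against 3.39, 3.15 and 3.34 CPM per kb. The gap was smallest in AxR replicate 1, and this order too depends on the exon lengths used. The share of Tgfb3 among the summed isoforms was 54.5%, 51.0% and 54.7% in P replicates 1 to 3 and 72.7%, 73.5% and 70.7% in AxR replicates 1 to 3. The share of Tgfb1 was 28.6% ± 2.22 in P and 13.4% ± 0.684 in AxR cells (SD, n = 3 per line). The summed level of the isoforms was 20.9 ± 0.900 CPM per kb in P and 24.6 ± 0.553 CPM per kb in AxR cells (SD, n = 3 per line). These shares and the other ratios between members were chosen after the values were seen and are given without a test.

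Activin A is a dimer of the product of Inhba, and follistatin, the product of Fst, binds activins and keeps them from their receptors. Inhba (ENSMUSG00000041324.14, chromosome 13 from 16011851 to 16031621) had 201, 196 and 220 CPM in P and 119, 129 and 129 CPM in AxR replicates 1 to 3. No AxR library reached the P range, and the log2 fold change was -0.71 (SE 0.057, adjusted p of 4.27e-08 by edgeR). Fst (ENSMUSG00000021765.8, chromosome 13 from 114452290 to 114458951) had the largest difference of the 37 tested members. It had 9.48, 10.6 and 11.7 CPM in P and 1.27, 1.72 and 1.48 CPM in AxR replicates 1 to 3, which rest on 156, 184 and 180 counts and on 20, 27 and 26 counts. The groups were far apart, with a level 7.09-fold higher in P cells (log2 fold change -2.83, SE 0.16, adjusted p of 1.25e-09 by edgeR). Both genes lie on chromosome 13, whose 555 tested genes had a median log2 fold change of -0.27.

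The other activin subunit gene and the other activin antagonist gene among the members moved the other way. Inhbb, the subunit of activin B, had 4.25, 3.00 and 3.33 CPM in P and 8.38, 5.74 and 6.66 CPM in AxR replicates 1 to 3 (log2 fold change 0.97, SE 0.18, adjusted p of 0.000199 by edgeR). Fstl3, a follistatin-like protein that also binds activin, rose from 20.8 ± 1.00 to 27.2 ± 2.04 CPM (SD, n = 3 per line), or by a log2 fold change of 0.39 (adjusted p of 0.000551 by edgeR). Exons of Fstl3 overlap those of Prss57 on the opposite strand over 1157 bases, and Prss57 itself was at 0.0800 CPM in P and 0.127 CPM in AxR cells. Per length, Fst made up 21.4% ± 2.59 of the summed Fst and Fstl3 level in P and 2.86% ± 0.614 in AxR cells (SD, n = 3 per line). The ratio of Inhba to Fst per length was 15.3, 13.3 and 13.5 in P and 67.2, 53.7 and 62.8 in AxR replicates 1 to 3. Against both antagonists together the ratio of Inhba moved the other way, from 2.98 ± 0.217 in P to 1.72 ± 0.163 in AxR cells (SD, n = 3 per line). Fstl3 was the more abundant antagonist in both lines.

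**Figure D3:**
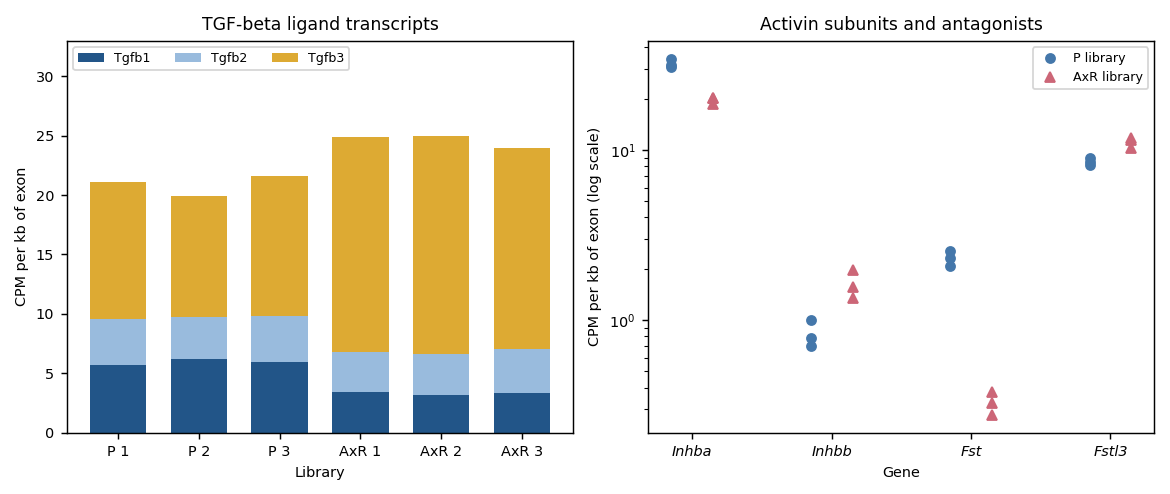
Left, stacked levels of Tgfb1, Tgfb2 and Tgfb3 in each library, in CPM per kb of exon. Right, levels of Inhba, Inhbb, Fst and Fstl3 on a log scale, with circles for P and triangles for AxR libraries. The Tgfb3 part of the bar is between 51.0% and 54.7% in P and between 70.7% and 73.5% in AxR libraries, and Fst shows the widest gap in the right panel.

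Latent TGF-beta binding proteins are matrix proteins, and several of them, though not all, tether the inactive ligand to the matrix. Ltbp1 was the most abundant member per length in both lines, at 46.3 ± 0.725 CPM per kb in P and 48.3 ± 1.01 CPM per kb in AxR cells (SD, n = 3 per line). Its log2 fold change of 0.06 did not pass (adjusted p of 0.240 by edgeR), although the libraries did not overlap. Ltbp4 fell from 119 ± 5.98 to 77.4 ± 2.14 CPM (SD, n = 3 per line), or by a log2 fold change of -0.62 (adjusted p of 1.31e-07 by edgeR). Ltbp2 rose by 0.39 and Ltbp3 by 0.21 on the log2 scale. Bmp1 is not a BMP ligand but a metalloprotease that processes procollagens and the BMP antagonist chordin. Bmp1 fell from 320 ± 7.54 to 238 ± 7.96 CPM (SD, n = 3 per line), or by a log2 fold change of -0.43 (adjusted p of 1.28e-06 by edgeR).

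The receptors of TGF-beta differed little between the lines. Tgfbr2, the type II receptor that binds TGF-beta, had 221, 229 and 223 CPM in P and 254, 227 and 237 CPM in AxR replicates 1 to 3, with overlapping groups and a log2 fold change of 0.09 (SE 0.051, adjusted p of 0.126 by edgeR). Tgfbr1, its type I partner, had 96.8, 80.0 and 99.6 CPM in P and 116, 115 and 98.4 CPM in AxR replicates 1 to 3. The groups overlapped, and the log2 fold change of 0.25 passed narrowly (adjusted p of 0.0236 by edgeR). This call was lost without P replicate 2 (0.16, adjusted p = 0.0580), AxR replicate 1 (0.22, adjusted p = 0.0858) or AxR replicate 2 (0.22, adjusted p = 0.0752 by the same edgeR test). The activin type I receptor Acvr1b and the co-receptor Tgfbr3 did not pass, with log2 fold changes of -0.04 and 0.04, and Tgfbr3 was at only 4.03 ± 0.947 CPM in P and 4.15 ± 0.548 CPM in AxR cells (SD, n = 3 per line). Eng, an auxiliary receptor known mainly from endothelium, was at 64.0 ± 2.52 CPM in P and 68.9 ± 1.83 CPM in AxR cells (SD, n = 3 per line) and did not pass either (log2 fold change 0.11, adjusted p of 0.107 by edgeR).

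Type II receptors that serve activins and BMPs were lower in AxR cells. Bmpr2, the BMP type II receptor (ENSMUSG00000067336.6, chromosome 1 from 59763400 to 59879014), had 310, 264 and 313 CPM in P and 201, 192 and 182 CPM in AxR replicates 1 to 3. All AxR libraries were below all P libraries, with a log2 fold change of -0.63 (SE 0.065, adjusted p of 1.03e-06 by edgeR). Relative to the median of its chromosome Bmpr2 was at -0.33 on the log2 scale. Acvr2a fell from 48.6 ± 4.55 to 34.7 ± 2.23 CPM (SD, n = 3 per line), or by a log2 fold change of -0.48 (adjusted p of 7.03e-05 by edgeR). Acvr2b, at a lower level, fell from 8.68 ± 0.717 to 4.98 ± 1.20 CPM (SD, n = 3 per line), by 0.81 on the log2 scale (adjusted p of 0.000369 by edgeR). Acvr2a shares 446 exon bases with Orc4 on the opposite strand, and Orc4 itself was at 47.4 CPM in P and 54.2 CPM in AxR cells. Summed per length, the 3 type II receptors were at 27.2 ± 2.52 CPM per kb in P and 18.0 ± 0.411 CPM per kb in AxR cells (SD, n = 3 per line), while the sum of Tgfbr1 and Tgfbr2 was 41.5 ± 1.16 and 46.1 ± 2.46 CPM per kb (SD, n = 3 per line).

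Among type I receptors of the BMP arm, Acvr1 fell and Bmpr1a did not pass the test. Acvr1, which encodes ALK2, had 58.4, 59.5 and 56.9 CPM in P and 35.8, 37.8 and 40.5 CPM in AxR replicates 1 to 3 (log2 fold change -0.62, SE 0.064, adjusted p of 7.90e-07 by edgeR). Bmpr1a had 195 ± 16.3 CPM in P and 192 ± 4.71 CPM in AxR cells (SD, n = 3 per line) with overlapping libraries (log2 fold change -0.02, SE 0.059, adjusted p of 0.763 by edgeR). Bmpr1b had at most 2 counts in any library.

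Of the 4 BMP ligands in the list, only Bmp7 was expressed at a level that could be tested. Bmp7 (ENSMUSG00000008999.7, chromosome 2 from 172868012 to 172940321) had 51.8, 52.3 and 47.9 CPM in P and 14.5, 14.5 and 16.7 CPM in AxR replicates 1 to 3. The groups were well separated and the level was 3.32-fold higher in P cells (log2 fold change -1.73, SE 0.079, adjusted p of 8.52e-11 by edgeR). In bulk RNA, fewer expressing cells and less transcript per cell cannot be told apart, for Bmp7 as for every gene here. Bmp2 and Bmp4 had no count in any library and Bmp6 had at most 1, where a count of 3 corresponds to between 0.171 and 0.196 CPM. The secreted BMP antagonists among the members, Grem1 and Nog, were likewise at the limit of detection at this depth. Grem1 had no count, and Nog had 3 counts in each P library and 2, 0 and 0 counts in AxR replicates 1 to 3.

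SMAD transcripts of both arms changed. Smad3 fell from 200 ± 2.56 to 152 ± 4.12 CPM (SD, n = 3 per line), or by a log2 fold change of -0.39 (adjusted p of 3.98e-06 by edgeR). The BMP SMADs Smad5 and Smad1 fell by 0.41 and 0.25 on the log2 scale, Smad5 from 229 ± 4.56 to 173 ± 7.20 CPM and Smad1 from 66.0 ± 2.16 to 55.6 ± 1.98 CPM (SD, n = 3 per line). Smad9 had 6, 4 and 3 counts in P and 0, 1 and 0 counts in AxR replicates 1 to 3 and was below the low-count filter. Relative to the median log2 fold change of its chromosome, Smad3 was at -0.16, Smad5 at -0.13 and Smad1 at -0.07, so each fall was more than 1.5 times smaller than without this subtraction.

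Smad2, Smad4 and the inhibitory Smad7 rose, and all 3 lie on chromosome 18, where the median log2 fold change of the 318 tested genes was 0.50. Smad4, the common partner of both arms (ENSMUSG00000024515.13), had 114, 108 and 116 CPM in P and 168, 166 and 169 CPM in AxR replicates 1 to 3 (log2 fold change 0.57, SE 0.050, adjusted p of 1.14e-07 by edgeR). Smad7, which blocks the receptors and is itself induced by TGF-beta and BMP, rose from 57.0 ± 0.685 to 76.6 ± 4.99 CPM (SD, n = 3 per line), or by a log2 fold change of 0.43 (adjusted p of 1.61e-05 by edgeR). Smad2 had a log2 fold change of 0.27 (adjusted p of 0.00108 by edgeR). Relative to the median of their chromosome, Smad4 was at 0.07, Smad7 at -0.07 and Smad2 at -0.23 on the log2 scale. The part of the chromosome-wide shift in these values was not tested. Per length, the ratio of Smad3 to Smad2 was 6.39 ± 0.224 in P and 4.05 ± 0.131 in AxR cells, and that of Smad4 to Smad3 was 0.846 ± 0.0202 and 1.64 ± 0.0456 (SD, n = 3 per line).

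The other intracellular inhibitors differed by at most 0.21 on the log2 scale. Smad6, which restrains mainly BMP signaling, was at 3.08 CPM in both lines (log2 fold change -0.0047, adjusted p of 0.985 by edgeR). Smurf2, a ubiquitin ligase for SMADs and their receptors, fell by 0.20 on the log2 scale (adjusted p of 0.00149 by edgeR). Smurf1 was at 145 ± 4.30 CPM in P and 131 ± 11.9 CPM in AxR cells (SD, n = 3 per line), and its log2 fold change of -0.15 passed with an adjusted p of 0.0410 from edgeR. The call of Smurf1 was lost with any library but AxR replicate 3 left out, with values between -0.16 and -0.11 and adjusted p-values from 0.0764 to 0.181 by the same edgeR test. Of the co-repressors that hold SMAD complexes inactive, Ski rose by 0.21 on the log2 scale (adjusted p of 0.00576 by edgeR) and Skil did not pass (0.07, adjusted p = 0.249).

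The ID genes encode helix-loop-helix proteins that block basic helix-loop-helix transcription factors. All 3 were higher in AxR cells. Id3 (ENSMUSG00000007872.3, chromosome 4 from 136143497 to 136145755) had 14.8, 15.8 and 14.6 CPM in P and 32.9, 34.8 and 32.0 CPM in AxR replicates 1 to 3. Every AxR library was at least double the mean of P, and the log2 fold change was 1.14 (SE 0.075, adjusted p of 4.78e-09 by edgeR). Id2 (ENSMUSG00000020644.9, chromosome 12 from 25093799 to 25097140) had 3.04, 2.25 and 2.80 CPM in P and 8.45, 10.1 and 7.05 CPM in AxR replicates 1 to 3, or between 39 and 50 counts against between 124 and 159. The groups were separated by a wide gap, with a log2 fold change of 1.66 (SE 0.17, adjusted p of 7.78e-07 by edgeR). Id1 had 5.23, 5.83 and 5.87 CPM in P and 5.84, 8.23 and 8.25 CPM in AxR replicates 1 to 3. AxR replicate 1 lay within the P range, and the log2 fold change of 0.40 had an adjusted p of 0.0284 from edgeR. Id1 did not pass without P replicate 1 (0.35, adjusted p = 0.0928), AxR replicate 2 (0.33, adjusted p = 0.112) or AxR replicate 3 (0.32, adjusted p = 0.0974), or with DESeq2 (0.39, adjusted p = 0.0797). Summed per length, the ID genes were at 14.4 ± 0.360 CPM per kb in P and 28.5 ± 1.98 CPM per kb in AxR cells (SD, n = 3 per line).

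**Figure D4:**
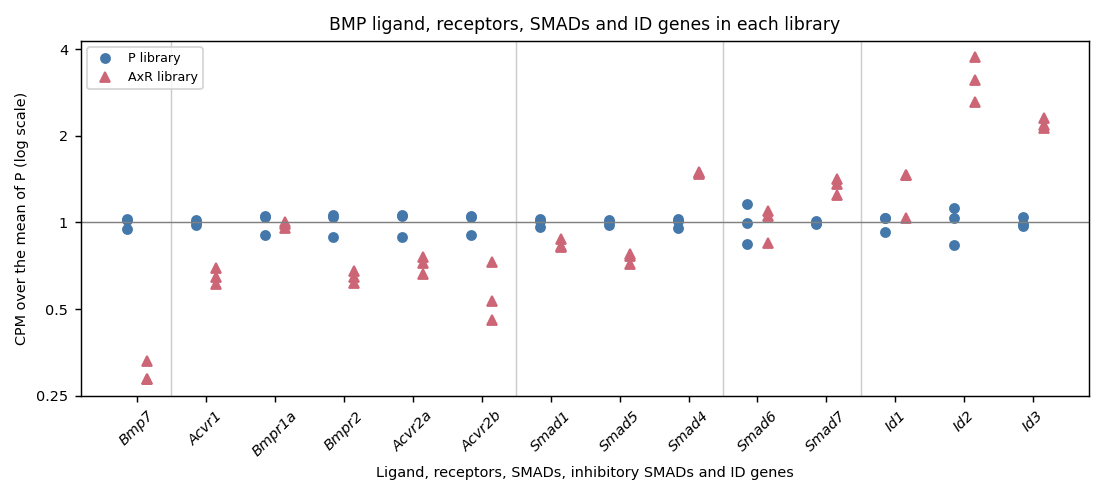
Level in each library divided by the mean of the 3 P libraries, on a log scale, for the BMP ligand, type I and type II receptors, SMADs, inhibitory SMADs and ID genes, with circles for P and triangles for AxR libraries. Bmp7, Acvr1, Bmpr2, Acvr2a, Acvr2b, Smad1 and Smad5 lie below 1 in all AxR libraries, and Id2 and Id3 lie above every P library.

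Bases before the start sites of some of the changed BMP arm genes are shown because SMAD complexes are known to bind short motifs in such regions. The windows were the 250 bases before RefSeq start sites on GRCm38.p6, which were given for 32 of the 44 members, and 3 short motifs were searched on both strands. CAGAC, the core of the SMAD3 and SMAD4 binding element, was present in 15 of the 32 windows (46.9%) and in 42.2% of all 32851 windows. GGCGCC, a GC-rich motif described for BMP SMADs, was present in 8 of the 32 (25%) and in 9.59% of all windows. CACCTG, the E-box variant bound by SNAIL and ZEB factors, was present in 7 of the 32 (21.9%) and in 17.2% of all windows. The set of all windows was taken without regard to expression and was not matched to the members in base composition. The members with GGCGCC include Grem1 and Smad9, which were below the low-count filter. These shares were not tested against each other. Bmp7 and Id1 passed the threshold but had no window. Of the BMP arm genes past the threshold with a window, Acvr1, Smad1 and Smad5 held neither of the first 2 motifs. The stretches of 30 bases around the match nearest the start site in the others are given 5′ to 3′ on the strand of the gene, with the match in capitals (GTCTG is CAGAC on the other strand). They lie at chr1:59764162-59764191 on the plus strand (Bmpr2), chr12:25096306-25096335 on the minus strand (Id2) and chr4:136143742-136143771 on the plus strand (Id3). In GENCODE M21 the Bmpr2 and Id3 stretches lie in the UTR of an isoform that begins further upstream, and the Id2 stretch in a part of a longer Id2 transcript that is not exonic. A match is a description of the sequence and says nothing of binding in these cells.
Bmpr2: ctccggcggccgGGCGCCgctgcctgcccc
Id2: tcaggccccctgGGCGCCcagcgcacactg
Id3: ggacccttggcgGTCTGttttgaataaggg

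Beyond the members, 100 other genes of these pathways were listed, and 47 of them were tested. In AxR cells 17 of these rose, 22 fell and 8 did not pass. The share past the threshold was 83.0%, beside 63.5% of all genes tested, and the lists were chosen with earlier results known. The counts of single lists below stand beside this same 63.5%. Of 23 other ligands only Gdf11, a ligand of the activin type receptors, could be tested, and it fell from 19.2 ± 0.517 to 9.51 ± 0.641 CPM (SD, n = 3 per line), or by a log2 fold change of -1.01 (adjusted p of 1.43e-07 by edgeR). Of 8 other receptors and co-receptors 2 were tested, and the BMP co-receptor Rgma rose by 0.57 while Rgmb fell by 0.72 on the log2 scale. Of 14 other antagonists 7 were tested, with 4 higher and 3 lower. Nbl1, a BMP antagonist of the DAN family, rose from 8.67 ± 1.89 to 21.1 ± 1.88 CPM (log2 fold change 1.28, adjusted p of 1.01e-06 by edgeR), and Htra1 and Twsg1 rose by 0.54 and 0.15. Fstl1, a secreted follistatin-like glycoprotein, fell from 4.45 ± 0.890 to 0.376 ± 0.309 CPM (log2 fold change -3.50, adjusted p of 1.57e-06 by edgeR), and the nodal antagonist Dand5 and Crim1 fell by 0.59 and 0.20.

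Among 12 genes of latency and ligand activation, 7 were tested, with 3 higher and 2 lower. Pcsk6, a proprotein convertase that cleaves ligand precursors of this family, rose from 5.48 ± 0.209 to 28.1 ± 1.69 CPM (SD, n = 3 per line), or by a log2 fold change of 2.36 (adjusted p of 2.04e-11 by edgeR), while Furin, a convertase of the same family, fell by 0.40 on the log2 scale. Lrrc32, which encodes GARP, a cell-surface anchor of latent TGF-beta, had no count in P libraries and 29, 24 and 30 counts in AxR replicates 1 to 3, so its mean level of 1.69 CPM was at least 8.65-fold higher than 3 counts in the library with the highest floor. Fbn1 rose from 0.509 ± 0.0859 to 1.58 ± 0.291 CPM (SD, n = 3 per line). Itgav, the integrin chain that takes part in activating latent TGF-beta, fell by 0.47 on the log2 scale.

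Of 16 regulators of SMADs and of the pathway kinase TAK1, 15 were tested, with 3 higher and 7 lower. The co-repressor Tgif2 fell from 36.0 ± 1.22 to 8.35 ± 1.94 CPM (SD, n = 3 per line), or by a log2 fold change of -2.10 (adjusted p of 1.83e-09 by edgeR), while its paralog Tgif1 did not pass (0.02, adjusted p = 0.757). The deubiquitinase Usp9x rose by 0.89, Tab2 by 0.58 and Tab1 by 0.51 on the log2 scale, and Zfyve16 and Wwp1 fell by 0.68 and 0.51.

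Textbook targets of TGF-beta moved in both directions. Of 16 listed, 12 were tested, 5 were higher and 6 were lower, with a median log2 fold change of -0.20. Thbs1, whose product thrombospondin can activate latent TGF-beta, rose from 207 ± 15.7 to 863 ± 97.2 CPM (SD, n = 3 per line), or by a log2 fold change of 2.06 (adjusted p of 3.08e-09 by edgeR). Bhlhe40, a transcription factor of the basic helix-loop-helix family, rose by 1.14 on the log2 scale. Pmepa1, a target that feeds back on SMAD2 and SMAD3, fell from 233 ± 19.5 to 103 ± 5.71 CPM (SD, n = 3 per line), or by a log2 fold change of -1.18 (adjusted p of 7.38e-10 by edgeR), and Klf10 and Klf11 fell by 0.78 and 0.66. Of 11 BMP targets other than Id1 to Id3, only 3 were tested. Gata2 had 27, 27 and 25 counts in P and 1, 2 and 1 counts in AxR replicates 1 to 3 (adjusted p of 9.10e-07 by edgeR). Id4 fell from 1.93 ± 0.437 to 0.694 ± 0.190 CPM (SD, n = 3 per line), in the direction opposite to Id1, Id2 and Id3 (log2 fold change -1.46, adjusted p of 0.000694 by edgeR). Runx2 was higher by 0.14 on the log2 scale (adjusted p of 0.0424 by edgeR).

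**Figure D5:**
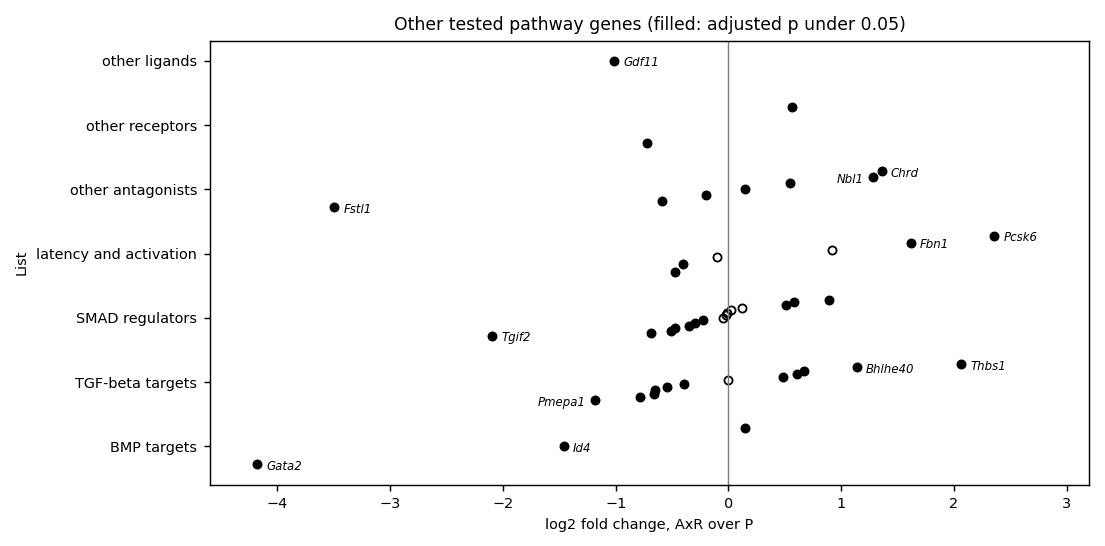
Log2 fold change of AxR over P for the tested genes of 7 lists of other pathway genes, 1 point per gene, filled where the adjusted p was under 0.05. Genes past 1 in either direction are named, with Fstl1 and Gata2 farthest to the left and Pcsk6 and Thbs1 farthest to the right. Chrd encodes chordin, a BMP antagonist, and stayed below 1 CPM on average in both lines. Lrrc32 is left out because it had no count in P libraries.

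The members differed in how closely replicates agreed. The coefficient of variation of CPM over the 3 libraries of a line had a median of 4.80% in P and 5.11% in AxR cells over the tested members. It was lowest for Smad7 in P (1.20%) and Smad4 in AxR cells (0.806%), and highest for Tgfbr3 in P (23.5%) and Acvr2b in AxR cells (24.2%), genes with at most 149 counts in a library. In the order of levels per length, Smad4 was at position 9 of the 37 tested members in P and 3 in AxR cells, Id3 at 26 and 14, Inhba at 6 and 13, and Bmp7 at 19 and 29. Neighbors such as Bmp1 and Smad3 in P cells, at 36.1 ± 0.850 and 36.0 ± 0.462 CPM per kb (SD, n = 3 per line), did not differ beyond their spread.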

How the data were processed

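Poly(A) RNA was sequenced from stranded libraries. The authors checked reads with FastQC 0.11.5, aligned them to GRCm38 (GENCODE M16) with STAR 2.6.0a, and deposited estimated counts per gene from RSEM 1.3.1, before filtering and normalization. RSEM divides reads shared between genes, and the strand setting of the counting is not given in the sources used here, so opposite-strand overlaps may share counts. Estimates that were not whole made up 10.3% to 10.7% of all 53465 genes per library. This base includes 28729 genes with no count in any library after rounding, so the share among genes with counts was larger.

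Counts were rounded, filtered with filterByExpr, normalized by upper quartile (factors 0.966 to 1.02), as the study did in edgeR, and tested with edgeR's robust quasi-likelihood method (edgeR 4.0.16, R 4.3.3), the line being the only term. The standard error is the absolute log2 fold change over the square root of F. Exact permutation tests used log2 of CPM + 0.5. The threshold was an adjusted p of 0.05 over 13550 genes. Between-replicate variation (common BCV) was 0.0595. Symbols and exon lengths came from GENCODE M21, which held 53360 of 53465 identifiers. Ctgf, listed under its older symbol, was matched as Ccn2. Floors of 3 counts cover counting error only. Alternatives were TMM, library size only, DESeq2 1.42.0, limma-voom (limma 3.58.1), 2 other low-count filters, the replicate number as a block, each library left out, and subtraction of chromosome medians. The edgeR test was also run on simulated counts in which only a small part of the genes was changed. In these data 63.5% of genes tested passed the threshold, so that run does not check the test under these conditions.

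The members and lists were chosen with earlier results of these data known. Members past the threshold with a log2 fold change of at least 1 are given by library, and other members as well where a comparison rests on them. Of each further list, up to 3 genes per direction past the threshold with at least 1 CPM in the higher line are named, taken by size, except 1 target gene that is not reported here. Tgif1, Chrd, Orc4, Prss57 and the marker genes were named after their values were seen. Groups and replicate numbers came from the sample labels, and all 6 libraries were kept, since replicates differed by more than sampling noise (chi-square over its degrees of freedom, 5.06 to 19.4).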

Additional observations from a re-analysis of the deposited data

How the results depend on the processing

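Of the 28 members past the threshold, 25 stayed past it in the same direction in each of 13 alternatives of normalization, tool, filter, block and left-out library. Tgfbr1, Smurf1 and Id1 did not, with adjusted p-values up to 0.0858, 0.181 and 0.112 from edgeR. Requiring a log2 fold change of at least 1 left 2 members higher and 2 lower. With each library left out, between 11 and 13 members were higher and 14 to 15 lower. The median was then between 0.053 and 0.10 for the TGF-beta and activin arm, between -0.19 and -0.10 for the BMP arm and between -0.08 and -0.01 for the shared members. With chromosome medians subtracted the arm medians were 0.14, -0.084 and -0.14, and the sign turned for 3 members past the threshold, Smad2 (-0.23), Smad7 (-0.074) and Smurf1 (0.0064), and for 4 that did not pass, Tgfb2 (0.21), Ltbp1 (-0.11), Skil (-0.25) and Smad6 (0.22). A further 9 members past the threshold moved toward 0 by over 1.5 times, among them Inhba (-0.44), Tgfbr1 (0.16), Fstl3 (0.14) and Ski (0.12).

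The replicate number as a block turned only the sign of Smad6, which did not pass in any alternative, to 0.00046. Same-numbered libraries did not deviate together (correlations of -0.021, -0.0061 and -0.022), so the levels gave no sign of pairing by number. With 3 libraries per line this cannot show whether same-numbered samples were handled together. The block left 13 members higher and 15 lower. Other members that did not pass turned sign with a library left out. The leave-one-out range was -0.14 to 0.20 for Tgfbr3, with -0.03 without AxR replicate 1, and -0.10 to 0.0028 for Acvr1b, -0.090 to 0.017 for Bmpr1a and -0.12 to 0.12 for Smad6. Depth limits Bmp2, Bmp4 and Grem1, with no count, and Bmp6, Bmpr1b, Nog and Smad9. Without the low-count filter those 4 were fitted and Smad9 passed as lower (adjusted p of 0.0158 by edgeR, on at most 6 counts in a library), which made 16 members lower, 6 of them of the BMP arm, while the adjusted p of the other 3 was between 0.185 and 1.00.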
